A study of Homo sapiens with 4 samples.

Results

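The metzincin proteases that cut the extracellular matrix and the cell surface, with their inhibitors, were examined in FT190 cells after depletion of SMARCA4, the ATPase of the SWI/SNF chromatin remodelling complexes. The members are the protein-coding genes whose symbols name matrix metalloproteases (MMPs), ADAMs, ADAMTS and ADAMTS-like proteins, tolloids (BMP1, TLL1, TLL2), tissue inhibitors of metalloproteases (TIMPs) and RECK. This symbol rule found 76 of the 63241 genes counted, of which 48 had enough reads to test. FT190 is an immortalised human line of fallopian tube secretory origin, and the labels call it an ovarian epithelial cell of wild-type genotype. RNA was sequenced from 2 libraries of control cells, which carried the PLKO vector per the series' design text, and 2 libraries of cells with 1 hairpin against SMARCA4 (sh1 in the labels). Both groups grew in the same serum-containing medium. The labels do not say whether the libraries of a group came from separate cultures, and p-values therefore cover only library-to-library spread, possibly technical.

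MMPs are zinc endopeptidases made as inactive precursors, either secreted or held at the membrane, and they degrade collagens, gelatin and other matrix proteins. ADAMs are mostly transmembrane sheddases that release growth factors, cytokines and receptor ectodomains, while ADAMTS enzymes are secreted and process proteoglycans and procollagens. The tolloids BMP1 and TLL1 remove the C-terminal propeptides of fibrillar procollagens, and TIMPs block the active sites of these enzymes with different preferences. In the fallopian tube and ovary such proteases are known for matrix remodelling.

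Total counts lay between 27137414 and 33641343 per library. In counts per 1e+06 reads (CPM), SMARCA4 was at 171 and 162 in the controls and at 34.0 and 36.3 with the hairpin, a log2 fold change of -2.24 (SE 0.0524). Of 18781 genes tested, 29.7% passed an adjusted p of 0.05, 13.8% higher and 15.8% lower in shRNA cells, and 65.9% had groups that did not overlap. Genes that rose made up 46.6% of these calls, and 59.5% when libraries were scaled by their totals alone. The keratins KRT7, KRT8 and KRT18 and the transcription factor PAX8 were all detected, whereas the epithelial gene EPCAM had a control mean of 0.477 CPM. Summed markers of secretory epithelium were 1744 to 1848 CPM in controls and 1258 to 1261 CPM in shRNA cells. In that list KRT7, KRT8 and KRT18 fell, whereas WT1 rose from 14.8 and 13.8 CPM to 18.4 and 18.0 CPM. The counted spans of KRT8 and KRT18 overlap on opposite strands, counting ignored strand, and their shared exon bases were not computed. PAX8, at 57.4 and 59.8 CPM and then 63.2 and 63.5 CPM, was not called, nor were EPCAM and MUC16. OVGP1 had 6 to 7 counts per library and was not tested. Summed markers of fibroblasts and smooth muscle were 2591 to 2601 CPM in controls and 1786 to 1924 CPM in shRNA cells. Of the 9 fibroblast and smooth muscle markers 6 fell and 0 rose, DCN had 2 counts in all libraries together and COL1A2 had 24. Ciliated markers summed to at most 1.07 CPM, endothelial markers to at most 1.23 CPM, and immune markers to 23.2 and 25.7 CPM in controls and 23.6 and 25.2 CPM in shRNA cells, of which the control mean of CD68 made up 23.0 CPM. Of the immune markers 1, CD14, fell, from 13 and 14 counts to 3 and 3 (adjusted p = 0.0168). Whether these marker levels play a part in the results below was not tested, and in bulk RNA fewer cells of a type cannot be told apart from less RNA per cell.

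Start regions of tested members had a higher median of CG dinucleotides than those of members with too few reads, with overlapping ranges. RefSeq start regions (GRCh38.p14, 250 bases before to 50 after the start) were matched by symbol for 48 of the 76 members. The 31 of these that were tested had a median of 30 CG dinucleotides per region, and the 17 with too few reads a median of 12, against 14 over 35116 start regions of all kinds and 21 over those of protein-coding genes. The range was 1 to 48 in the tested and 0 to 43 in the others. Among tested members with a matched region the median was 36 for the 5 that rose, 35 for the 9 that fell and 28 for the other 17. These are descriptions without a test. As examples, the 30 bases just upstream of the annotated start are printed 5′ to 3′, with CG dinucleotides in capitals. Shown are 4 members with large changes and 2 nearly silent collagenase-cluster genes. They were chosen after their values were seen.
ADAMTSL4, chr1:150549378-150549407, plus strand: gcCGaggCGgcCGtgacCGgagCGCGgctc
ADAMTS14, chr10:70672476-70672505, plus strand: CGccCGgctccCGCGgagtccCGgagCGtc
TIMP3, chr22:32801675-32801704, plus strand: tatatcactCGgcCGcccaggcagCGgCGc
TLL1, chr4:165873207-165873236, plus strand: gggtaaaaagacaggctggCGgggggaagg
MMP7, chr11:102530748-102530777, minus strand: tataaatttctgcagtcactagcagaaaac
MMP8, chr11:102724955-102724984, minus strand: tttaaagaggactgcaagagagctgtgagt
The ADAMTSL4 and ADAMTS14 windows hold 6 CG dinucleotides each, TIMP3 4, TLL1 1 and the 2 MMP windows 0. Some other members with too few reads held many there, such as ADAMTS10 with 6 and ADAMTSL2 with 5. Some members with called changes held few, such as ADAM10 and ADAMTSL1 with 0 and MMP14 with 1.

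The AP-1 element TGANTCA, known as a control element of inducible MMP genes, was searched on both strands of the same regions. It occurred in 7.71% of all start regions and in 4 of the 48 matched members, MMP7, MMP10, MMP20 and ADAMTS12. MMP1, MMP2, MMP3, MMP9, MMP12 and MMP13 were among the members without a matched region and were not searched. The 2 classical arrangements are printed with the element in capitals, which begins 67 bases upstream of the start in both.
MMP7, chr11:102530797-102530825, minus strand: aaacactcaaaTGAGTCAcctatttccac
MMP10, chr11:102780678-102780706, minus strand: aaacacatgcaTGAATCAtactgttggtg
MMP7 and MMP10 also carry the TATA element TATAAA 30 and 31 bases upstream, an element present in 10 of 48 members and 11.5% of all start regions. Neither MMP7 nor MMP10 reached the count filter in these cells. MMP7 had 1 to 8 counts per library and MMP10 1 to 5.

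Expression of the family was carried by few members. Levels are compared between genes as CPM per kilobase of the counted transcript. In controls the order was TIMP1 (117), MMP14 (83.4), TIMP2 (73.1), ADAM9 (53.8), MMP2 (32.9), BMP1 (24.8), ADAM15 (24.1), ADAM10 (21.6), ADAMTS1 (20.2) and ADAMTS12 (19.3), each a mean of 2 libraries. TIMP1 and MMP14 did not overlap between control libraries, nor did MMP14 and TIMP2, whereas BMP1 overlapped ADAM15, and ADAMTS1, with the wider spread of 16.3 to 24.1, overlapped BMP1, ADAM15, ADAM10 and ADAMTS12. The TIMP1 value rests on a counted transcript of 758 bases, 69.2% of the gene's longest transcript in GENCODE release 29. That of ADAM9 rests on 7038 bases, 183.3% of the longest there, so the per-kilobase levels of both depend on the transcript counted.

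**Figure D1:**
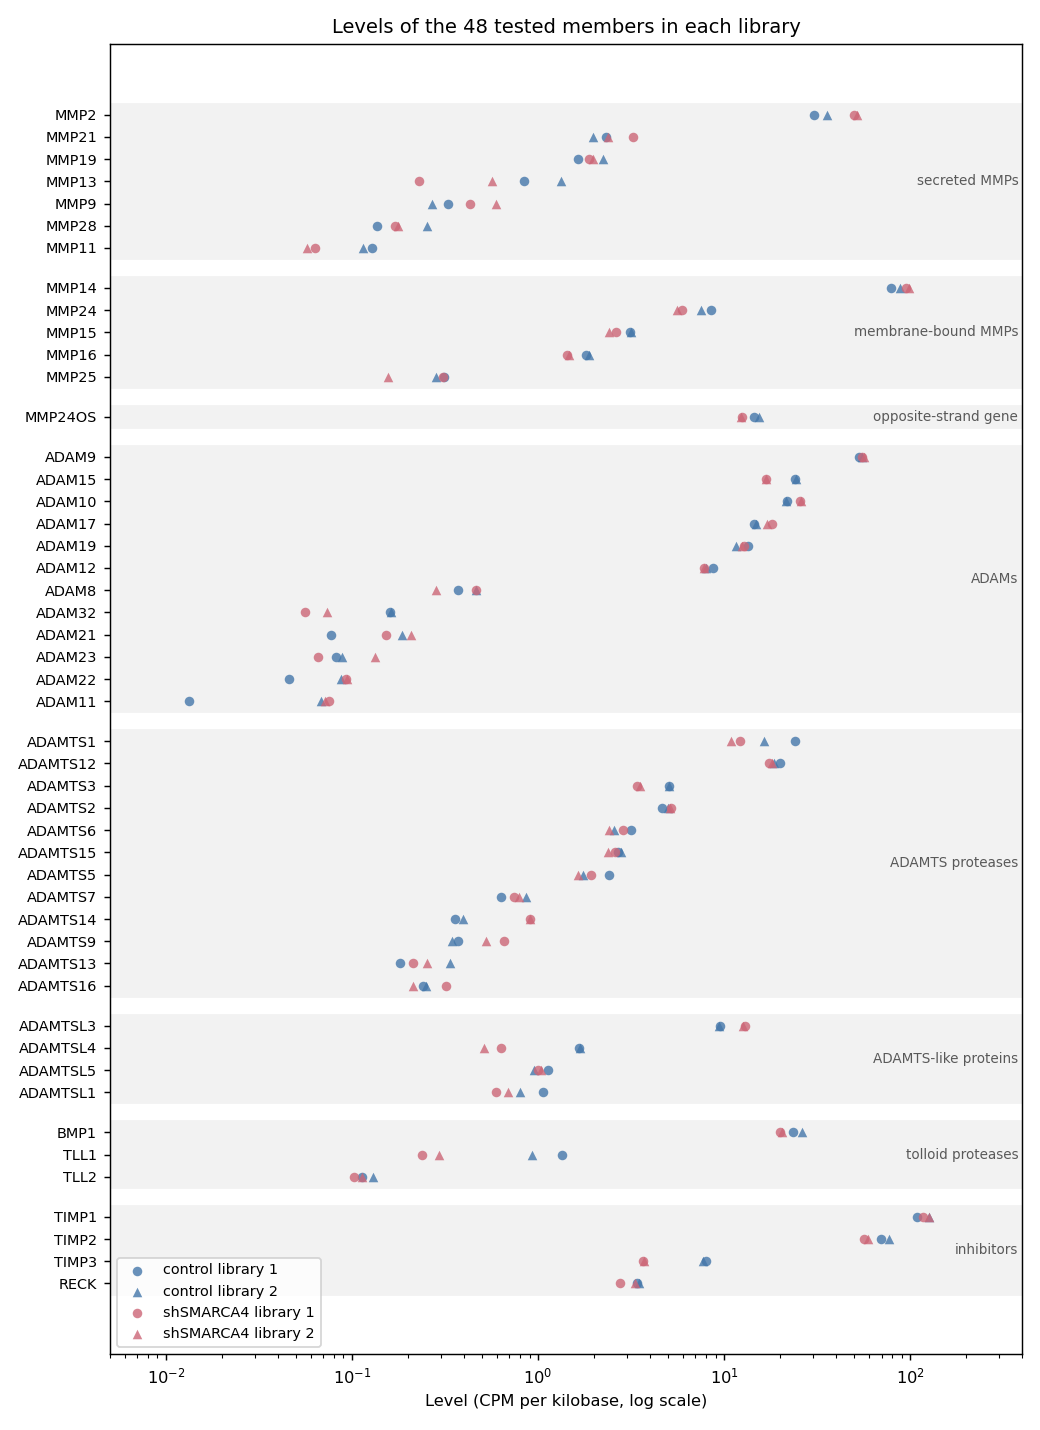
Level of each of the 48 tested members in CPM per kilobase (log scale), 1 point per library (blue control, red shRNA), grouped by class and ordered by the control mean. TIMP1, MMP14 and TIMP2 sit highest, and TLL1, MMP13 and ADAMTSL4 show shRNA points to the left of both control points.

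The remaining 28 members fell under the count filter. Of these, 9 had no count in any library: ADAM2, ADAM18, ADAM30, ADAMTS19, ADAMTS20, ADAMTSL2, TIMP4, MMP26 and MMP27. A count of 0 allows up to 3 counts, or 0.0915 to 0.109 CPM across the libraries, counting error only. The rows of ADAM2, ADAM18 and MMP20 count transcripts of 513, 529 and 653 bases, 19.2%, 22.2% and 33.4% of the longest release 29 transcripts, so reads on other exons of these genes are not in the values. The other 19 (MMP1, MMP3, MMP7, MMP8, MMP10, MMP12, MMP17, MMP20, MMP23B, ADAM7, ADAM20, ADAM28, ADAM29, ADAM33, ADAMTS4, ADAMTS8, ADAMTS10, ADAMTS17 and ADAMTS18) had 0 to 15 counts per library.

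Of the 48 members tested, 7 rose and 14 fell after SMARCA4 depletion, so 43.8% passed the threshold, against 29.7% of all genes tested and 36.0% of protein-coding genes tested. The median log2 fold change of the 48 was -0.13, and that of all genes tested was 0.00. Of the 48, 14.6% rose and 29.2% fell, against 13.8% and 15.8% of all genes tested, and the groups did not overlap in 34, against 65.9% of all genes. By class, 1 secreted MMP rose and 1 fell of 7 tested, 1 membrane-bound MMP rose and 3 fell of 5, 2 ADAMs rose and 1 fell of 12, 2 ADAMTS proteases rose and 2 fell of 12, 1 ADAMTS-like gene rose and 2 fell of 4, 0 tolloids rose and 2 fell of 3, and 0 inhibitors rose and 2 fell of 4. The other call, lower, was MMP24OS, a gene opposite MMP24 that matches the symbol rule but is no known protease. Values in parentheses after a symbol give log2 fold change ± SE, hairpin relative to control (n = 2 in each group). "Rose" and "fell" stand for an adjusted p under 0.05 in edgeR's quasi-likelihood test, adjusted by Benjamini-Hochberg across every tested gene.

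**Figure D2:**
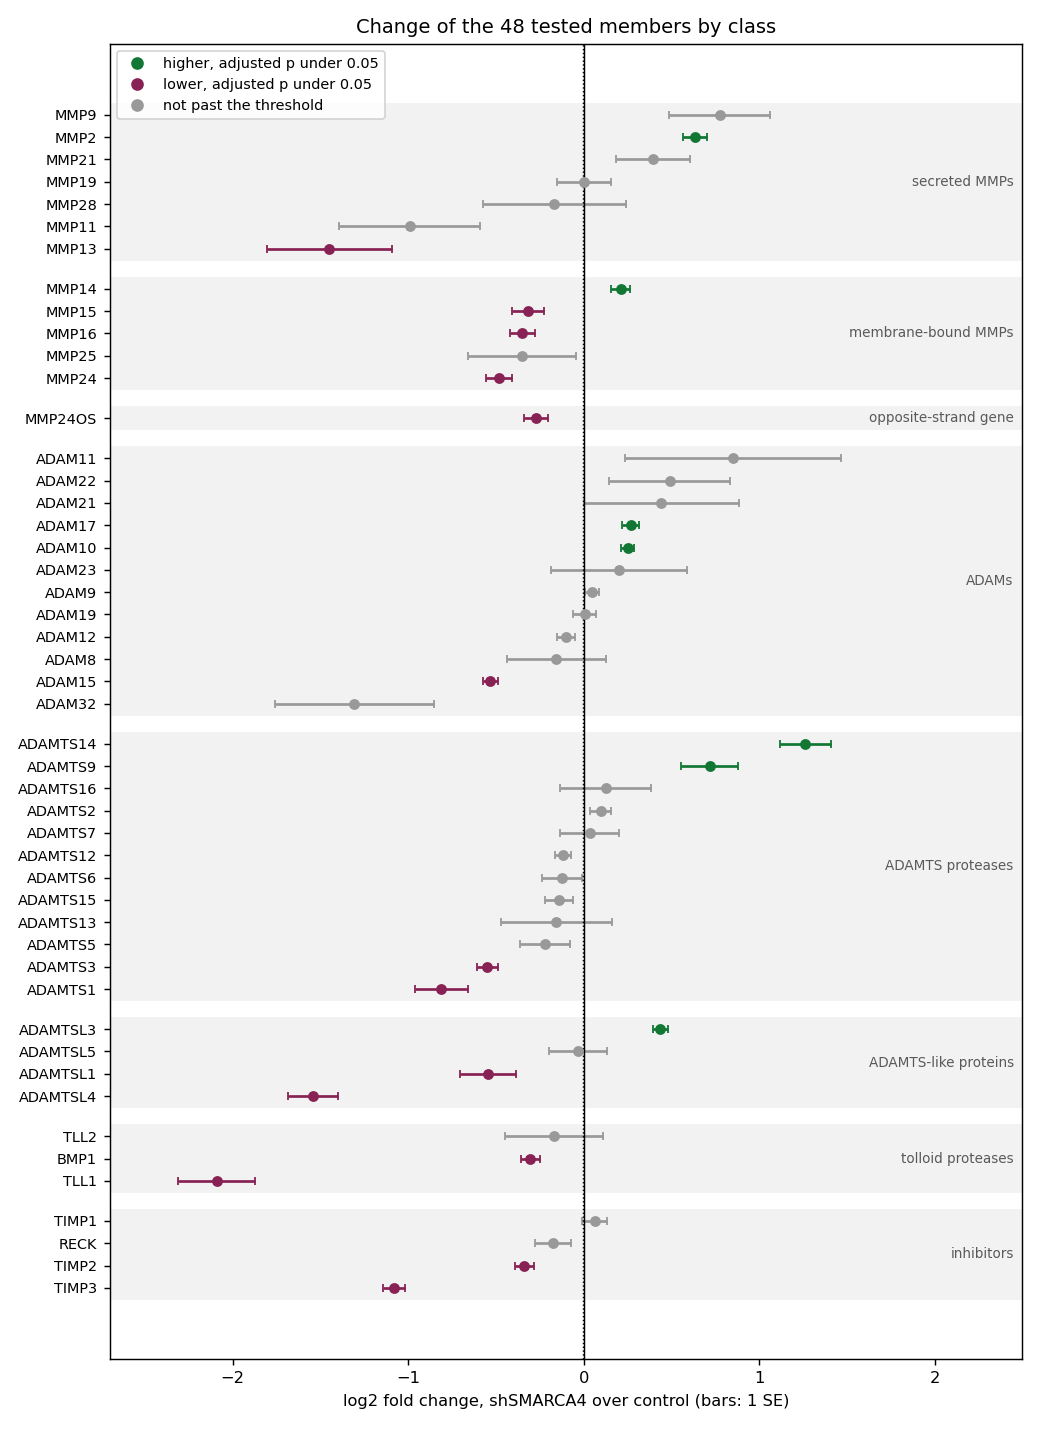
Log2 fold change of each tested member, shRNA over control, with 1 SE, grouped by class; green and purple mark calls, grey the rest, and the dotted line is the median of all genes tested. The 2 lowest points are TLL1 at -2.09 and ADAMTSL4 at -1.54, and the highest is ADAMTS14 at 1.26.

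MMP2 and MMP14 rose and their inhibitor TIMP2 fell. MMP2 (ENSG00000087245.13, chromosome 16, 55479198 to 55506691, plus strand of hg38), a secreted gelatinase, measured 106 and 124 CPM in control libraries against 175 and 181 CPM after depletion. Both shRNA libraries lay above both controls, and MMP2 rose (0.63 ± 0.0677, adjusted p = 0.000219), 1.55-fold. MMP14 (chromosome 14, 22836585 to 22847758), the membrane-type protease that activates pro-MMP2 at the cell surface, stood at 290 and 324 CPM and then at 350 and 360 CPM. The groups did not overlap, and MMP14 rose by a small amount (0.21 ± 0.0531, adjusted p = 0.0163), a call lost with no count filter (adjusted p = 0.0767) and without shRNA library 2 (0.0593). Without control 1 the MMP14 value was 0.14. TIMP2 (chromosome 17, 78852977 to 78925387), which inhibits both and also bridges pro-MMP2 to MMP14, stood at 252 and 280 CPM in controls and at 206 and 215 CPM in shRNA libraries. Every shRNA value lay below every control value, and TIMP2 fell (-0.34 ± 0.0538, adjusted p = 0.00167). Unstranded counting leaves 367 exon bases of TIMP2 shared with an opposite-strand gene, and 174 bases of MMP2 with a gene on its own strand. The gene that overlaps TIMP2 stood at -0.34 (SE 0.0713, adjusted p = 0.00687). That overlapping MMP2 stood at 0.56 (SE 0.172, adjusted p = 0.0353). Both moved in the direction of the member, and reads on the shared bases cannot be assigned to one gene.

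The 3 transcripts together gave a changed ratio, a quantity chosen after the values were seen and given without a test. Per kilobase, MMP2 was 0.437 and 0.462 of TIMP2 in the controls and 0.887 and 0.880 of it in the shRNA libraries. MMP14 was 1.14 of TIMP2 in each control and 1.68 and 1.66 in the shRNA libraries. The 2 libraries of each group lay close together in both ratios and the groups stood apart.

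Inhibitors did not move as one. TIMP3 (ENSG00000100234.12, chromosome 22, 32801705 to 32863041), the matrix-bound inhibitor that also acts on ADAM17 and ADAMTS enzymes, stood at 36.5 and 35.1 CPM in controls and at 16.8 and 17.1 CPM in shRNA libraries. The shRNA libraries held fewer TIMP3 reads than either control by a wide margin, and TIMP3 fell 2.11-fold (-1.08 ± 0.0624, adjusted p = 1.04e-05), the smallest adjusted p among the members. TIMP1, a secreted inhibitor of most soluble MMPs, stood at 81.8 and 94.9 CPM and at 89.0 and 95.5 CPM, with overlapping groups (0.06 ± 0.0697, adjusted p = 0.550). The TIMP1 value depended on the control used, at -0.04 without control 1 and 0.17 without control 2. RECK, a membrane-anchored inhibitor of MMPs, stood at 14.8 and 15.2 CPM and at 12.05 and 14.6 CPM (-0.17 ± 0.101, adjusted p = 0.229) and was not called. Summed over the class, inhibitors came to 386 and 425 CPM in controls and 323 and 342 CPM in shRNA libraries.

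**Figure D3:**
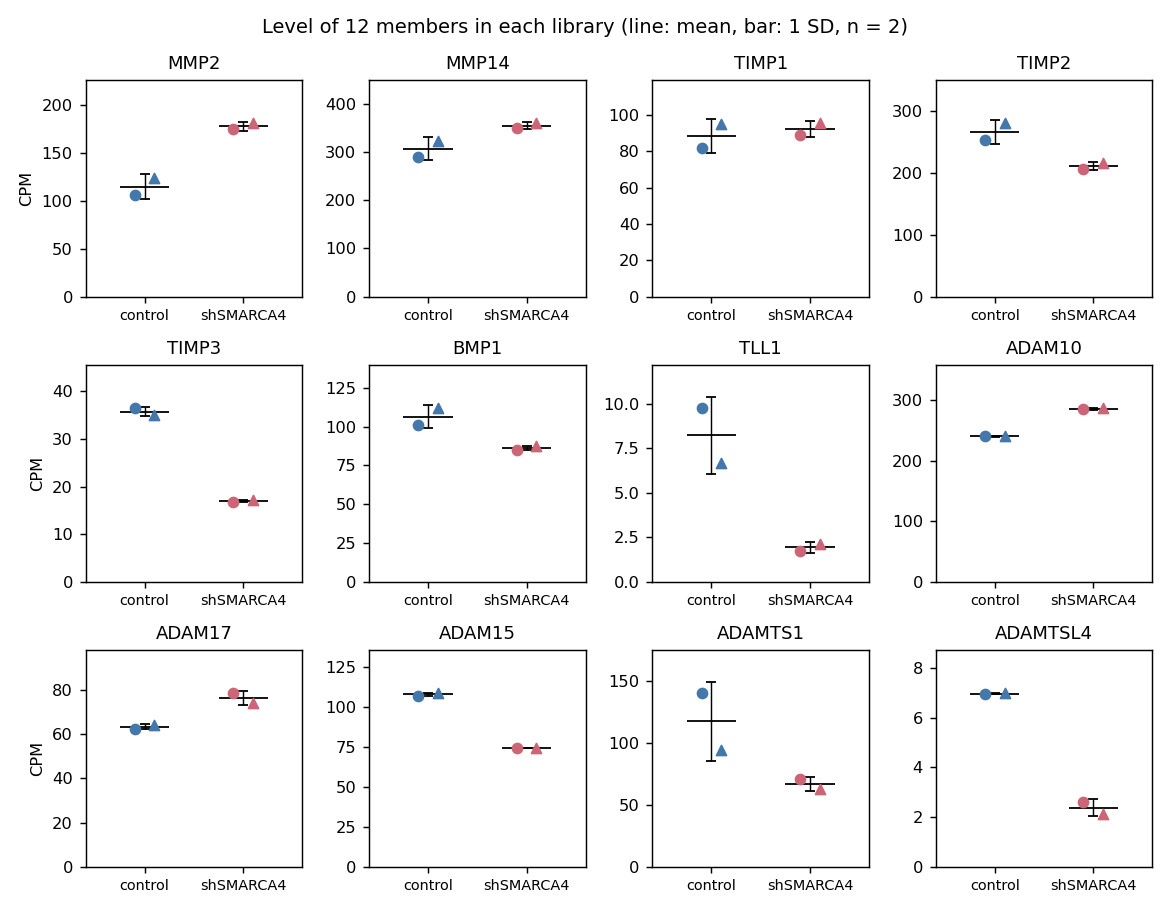
CPM of 12 members in each library on axes that start at 0, with the group mean (line) and 1 SD (bar, n = 2). MMP2 points are higher in both shRNA libraries, TIMP2, TIMP3, BMP1 and TLL1 points are lower in both, and the TIMP1 groups overlap.

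Among the other secreted MMPs, MMP13 (ENSG00000137745.13, chromosome 11, 102942995 to 102955732), a collagenase, fell from 2.26 and 3.56 CPM to 0.621 and 1.52 CPM (-1.45 ± 0.357, adjusted p = 0.0146). The libraries of each group differed from each other: the log2 fold change was -2.22 without shRNA library 2 and -0.92 without shRNA library 1, and the call was lost with no count filter (adjusted p = 0.0849). MMP13 was the only one of the 9 MMP genes in the 435.2 kilobase cluster on chromosome 11 (102520508 to 102955732) to be tested, and the other 8 had 0 to 10 counts per library. The gelatinase MMP9 (0.77 ± 0.288), MMP21 (0.39 ± 0.211), MMP19 (0.00 ± 0.153), MMP28 (-0.17 ± 0.407) and MMP11 (-0.99 ± 0.404) did not pass the test. MMP21 rests on a counted transcript of 853 bases, 44.5% of the longest in release 29. MMP9 stood at 0.762 and 0.620 CPM and at 1.00 and 1.38 CPM, an adjusted p of 0.0727. The exons of MMP9 share 430 bases with an antisense gene, SLC12A5-AS1, and counting ignored strand, so MMP9 is uncertain.

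Of the other membrane-bound MMPs, MMP24, MMP16 and MMP15 fell. MMP24 (chromosome 20, 35226690 to 35276998) stood at 37.1 and 32.6 CPM in controls and 25.7 and 24.2 CPM in shRNA libraries and fell (-0.48 ± 0.0754, adjusted p = 0.00158). MMP16 (-0.35 ± 0.0697), also a membrane-type MMP, went from 20.9 and 21.5 CPM to 16.5 and 16.8 CPM and fell (adjusted p = 0.00543). MMP15 (-0.32 ± 0.0908) went from 12.5 and 12.7 CPM to 10.6 and 9.67 CPM. In all 3 both shRNA libraries lay below both controls. MMP25 (-0.35 ± 0.308) had overlapping groups and did not pass. The untested MMP17 had 3 and 4 counts in controls and 6 and 10 in shRNA libraries. MMP24 shares 799 exon bases with MMP24OS on the other strand, which stood at 24.6 and 26.1 CPM and at 21.2 and 20.8 CPM (-0.27 ± 0.0663), so these 2 genes cannot be fully separated. The MMP15 call was lost with library totals, no filter, DESeq2 (adjusted p = 0.130) or without either shRNA library, and the MMP24OS call with no filter, DESeq2 or without either shRNA library.

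The 2 sheddases ADAM10 and ADAM17 rose modestly. ADAM10 (ENSG00000137845.15, chromosome 15, 58588809 to 58749707), which cleaves Notch receptors and cadherins, stood at 241 and 240 CPM in controls and at 285 and 287 CPM in shRNA libraries. Replicates were nearly equal in both groups, and ADAM10 rose (0.25 ± 0.0376, adjusted p = 0.00124). ADAM17 (chromosome 2, 9488486 to 9555830), which sheds tumour necrosis factor and ligands of the epidermal growth factor receptor (EGFR), went from 62.6 and 64.3 CPM to 78.6 and 74.3 CPM (0.27 ± 0.0483, adjusted p = 0.00327). The ADAM17 row shares 1323 exon bases with IAH1 on the other strand, which stood at 0.16 (SE 0.0554, adjusted p = 0.0549), and reads on those bases cannot be assigned to one of the 2 genes. Per kilobase, ADAM17 was 1.81 and 1.93 times TIMP3 in controls and 4.93 and 4.58 times in shRNA libraries, a ratio also chosen after the values were seen.

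ADAM15 (ENSG00000143537.14, chromosome 1, 155050946 to 155062775), a sheddase with an integrin-binding disintegrin domain, stood at 107 and 108 CPM in controls and at 74.5 CPM in each shRNA library. It fell (-0.53 ± 0.0417, adjusted p = 4.45e-05), opposite to ADAM10 and ADAM17. ADAM9, the most abundant ADAM, stood at 371 and 387 CPM and at 388 and 394 CPM and was not called (0.05 ± 0.0401, adjusted p = 0.434). ADAM19 (0.01 ± 0.0667) and ADAM12 (-0.10 ± 0.0526), 2 further catalytically active ADAMs, did not pass either. Nor did the low members ADAM8 (-0.16 ± 0.280), ADAM11 (0.85 ± 0.616), ADAM21 (0.44 ± 0.444), ADAM22 (0.49 ± 0.344), ADAM23 (0.20 ± 0.386) and ADAM32 (-1.31 ± 0.454). ADAM32 lies 2.3 kilobases from the counted row of ADAM9 on chromosome 8, at 0.396 and 0.403 CPM in controls and 0.138 and 0.181 CPM in shRNA libraries (adjusted p = 0.0582), and its counted transcript is 36.0% of the longest in release 29. Summed over the class, ADAMs stood at 939 and 942 CPM and at 973 and 976 CPM.

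Within ADAMTS enzymes, the procollagen N-proteinases ADAMTS2, ADAMTS3 and ADAMTS14 took different courses. ADAMTS14 (ENSG00000138316.11, chromosome 10, 70672506 to 70762441) stood at 1.98 and 2.17 CPM in controls and 4.97 and 5.00 CPM in shRNA libraries and rose 2.40-fold (1.26 ± 0.147, adjusted p = 0.000337). ADAMTS3 (chromosome 4, 72280969 to 72569221), the more abundant of these 2, went from 31.5 and 31.3 CPM to 21.1 and 21.8 CPM and fell (-0.55 ± 0.0601, adjusted p = 0.000246). ADAMTS2 stood at 31.1 and 33.7 CPM and at 34.8 and 34.5 CPM and did not pass (0.10 ± 0.0601, adjusted p = 0.266). In both ADAMTS3 and ADAMTS14 the replicates of a group lay close together and the groups stood apart.

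The proteoglycan-cleaving ADAMTS1 (ENSG00000154734.16, chromosome 21, 26836310 to 26845409) stood at 140 and 94.6 CPM in controls and 70.8 and 62.8 CPM in shRNA libraries. It fell (-0.81 ± 0.149, adjusted p = 0.00367), with the 2 controls further apart than the 2 shRNA libraries. The log2 fold change was -0.50 without control 1, and the call was lost with no count filter (adjusted p = 0.0504). ADAMTS5, another proteoglycan-cleaving enzyme that lies 72.5 kilobases from it, stood at 23.0 and 16.8 CPM and at 18.5 and 15.7 CPM with overlapping groups (-0.22 ± 0.141, adjusted p = 0.277). Its value was 0.03 without control 1 and -0.43 without control 2, where it was called (adjusted p = 9.53e-07), as it was without shRNA library 1 (0.0421) and with a replicate block (0.0481). Control 1 held the higher value of the 2 controls in both neighbours. ADAMTS9 (0.72 ± 0.163), also a proteoglycan-cleaving enzyme, rose from 2.80 and 2.603 CPM to 4.94 and 3.95 CPM (adjusted p = 0.0101), a call lost without shRNA library 1 (0.0682). ADAMTS12 (-0.12 ± 0.0473), ADAMTS6 (-0.12 ± 0.116), ADAMTS7 (0.03 ± 0.168), ADAMTS15 (-0.14 ± 0.0804), ADAMTS16 (0.12 ± 0.257) and ADAMTS13 (-0.16 ± 0.316), the protease of von Willebrand factor, did not pass. The untested ADAMTS10 had 11 and 15 counts in controls and 3 and 2 in shRNA libraries. The summed level of ADAMTS proteases was 445 and 383 CPM in controls and 347 and 336 CPM in shRNA libraries.

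ADAMTS-like proteins share the ancillary domains of ADAMTS enzymes without the catalytic domain, and several bind fibrillin microfibrils. ADAMTSL4 (ENSG00000143382.16, chromosome 1, 150549408 to 150560933) stood at 6.95 and 6.97 CPM in controls and 2.62 and 2.14 CPM in shRNA libraries and fell 2.92-fold (-1.54 ± 0.143, adjusted p = 9.85e-05). Its exons share 731 bases with ADAMTSL4-AS1 on the other strand, which also fell (-1.48, SE 0.291, adjusted p = 0.00498), and the counts do not separate the 2. ADAMTSL3, the most abundant of the class, went from 68.8 and 67.7 CPM to 93.5 and 91.2 CPM and rose (0.44 ± 0.0435, adjusted p = 0.000147). ADAMTSL1 (-0.55 ± 0.160) fell from 8.20 and 6.20 CPM to 4.56 and 5.33 CPM (adjusted p = 0.0302), a call lost with no filter, with DESeq2 (0.0547), without control 1 (0.0625) or without shRNA library 1 (0.0848), and the value was -0.32 without control 1. ADAMTSL5 (-0.03 ± 0.165) had overlapping groups.

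Of the tolloids, TLL1 and BMP1 fell. TLL1 (ENSG00000038295.8, chromosome 4, 165873237 to 166104457), a procollagen C-proteinase of the astacin family, stood at 9.76 and 6.69 CPM in controls and at 1.73 and 2.14 CPM in shRNA libraries. Its level fell 4.26-fold (-2.09 ± 0.218, adjusted p = 0.000191), the largest change of any tested member. BMP1 (chromosome 8, 22165187 to 22212324), the prototype of the family and far more abundant, went from 101 and 112 CPM to 85.2 and 87.3 CPM and fell (-0.30 ± 0.0545, adjusted p = 0.00315). TLL2 (-0.17 ± 0.280) stood under 1 CPM in every library. Summed tolloid levels were 112 and 119 CPM in controls and 87.6 and 90.2 CPM in shRNA libraries.

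Genes that act with the members were read from a list of 69 substrates and partners, of which 62 were tested. In that list 18 rose and 17 fell, 56.5% against 29.7% of all genes tested and 36.0% of protein-coding genes tested. All listed genes are protein-coding. The list was chosen with earlier results of these data known, so its shares, and those of its groups below, are descriptions only. The plasmin system activates several pro-MMPs, and the proprotein convertases remove the prodomains of membrane-bound MMPs, ADAMs and ADAMTS enzymes. Of 10 tested genes of these 2 sets together, 4 rose and 3 fell. These are 40% and 30%, against 13.8% and 15.8% of all genes tested. PLAU, the urokinase plasminogen activator, stood at 115 and 126 CPM in controls and at 258 and 266 CPM in shRNA libraries (1.12 ± 0.0505, adjusted p = 3.04e-06), and its receptor PLAUR (adjusted p = 0.000139) and the activator PLAT (0.44 ± 0.107) rose as well. The convertase FURIN went from 83.9 and 82.7 CPM to 38.1 and 41.7 CPM (-1.06 ± 0.0539, adjusted p = 5.95e-06). PCSK7, another convertase, fell from 85.4 and 71.4 CPM to 33.8 and 35.5 CPM (-1.18 ± 0.0822). The span of PCSK7 (chromosome 11, 117204337 to 117232073) overlaps that of the smooth muscle marker TAGLN (117199370 to 117207464) on the other strand. TAGLN fell from 337 and 295 CPM to 108 and 115 CPM. Counting ignored strand, and shared exon bases were computed for the members only, not for any partner or marker gene. The fall of PCSK7 is therefore uncertain, and the other partner genes were not checked for such overlaps. The third that fell was the urokinase inhibitor SERPINB2 (-1.06 ± 0.146). The convertases PCSK5 (0.38 ± 0.181) and PCSK6 (-0.45 ± 0.509) did not pass, nor did SERPINE2 (-0.07 ± 0.0604) of the plasmin system. Precursor plasminogen itself, PLG, had no count in any library.

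Of 9 cofactors of ADAM10 and ADAM17, 2 rose and 2 fell, 22.2% in each direction against 13.8% and 15.8% of all genes tested, shares near the background for a list of 9. TSPAN14 (-0.58 ± 0.0505) and TSPAN15 (-0.35 ± 0.0958), tetraspanins that carry ADAM10 to the cell surface, fell, and TSPAN33 (0.58 ± 0.127), of the same group, rose. RHBDF2 (0.44 ± 0.0711), an iRhom protein required for ADAM17 maturation, went from 15.6 and 16.4 CPM to 21.6 and 21.8 CPM and rose (adjusted p = 0.00185). Its relative RHBDF1 (-0.27 ± 0.102) did not pass.

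Of 17 shed membrane proteins tested, 7 rose and 1 fell, 41.2% and 5.88% against 13.8% and 15.8% of all genes tested. Of the 5 EGFR ligands tested, AREG (0.79 ± 0.158), TGFA (0.57 ± 0.0928) and EREG (adjusted p = 0.0277), the last at 0.322 CPM in controls, rose. The most abundant of them, HBEGF (0.07 ± 0.112), at 116 CPM in controls, and BTC (-0.05 ± 0.162) did not pass. Genes that also rose were NRG1 (0.58 ± 0.0843), the hyaluronan receptor CD44 (0.60 ± 0.0425), SDC1 (0.36 ± 0.112) and IL6R (0.67 ± 0.213). The adhesion molecule L1CAM stood at 312 and 310 CPM in controls and 120 and 129 CPM in shRNA libraries and fell (-1.33 ± 0.0457, adjusted p = 1.07e-06). The ADAM10 substrates NOTCH2 (0.10 ± 0.0398) and CDH2 (-0.02 ± 0.0418) did not pass.

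Of 21 matrix substrates tested, 10 fell and 3 rose, 47.6% and 14.3% against 15.8% and 13.8% of all genes tested. The difference between directions was not tested. LOX, the collagen cross-linking enzyme and a BMP1 substrate, fell from 77.0 and 78.6 CPM to 30.7 and 29.3 CPM (-1.38 ± 0.0504, adjusted p = 1.40e-06). LUM (-1.07 ± 0.0484) and BGN (-1.26 ± 0.109), small leucine-rich proteoglycans, fell too, and VCAN (-0.39 ± 0.0667), a substrate of ADAMTS1, went from 357 and 304 CPM to 251 and 254 CPM. Those that rose were COL6A3 (0.83 ± 0.114), LTBP1 (0.74 ± 0.106) and FBN1 (0.16 ± 0.0485). COL1A1, COL5A1, FN1, NID1, SPARC and FBN2 made up the rest of the falls, between -0.56 and -0.23. COL1A1 and LUM are also among the fibroblast markers that fell. Of 5 tested processing and clearance partners, LRP1 (-0.34 ± 0.0487), the endocytic receptor for MMPs and TIMP complexes, fell, and PCOLCE2 (0.33 ± 0.0869), an enhancer of procollagen C-proteinases, and POFUT2 (0.23 ± 0.0560), which fucosylates ADAMTS repeats, rose. In this list of 5, 20% fell and 40% rose, against 15.8% and 13.8% of all genes tested. Genes of this list beyond the 3 of each group with the smallest adjusted p were named after their values were seen.

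**Figure D4:**
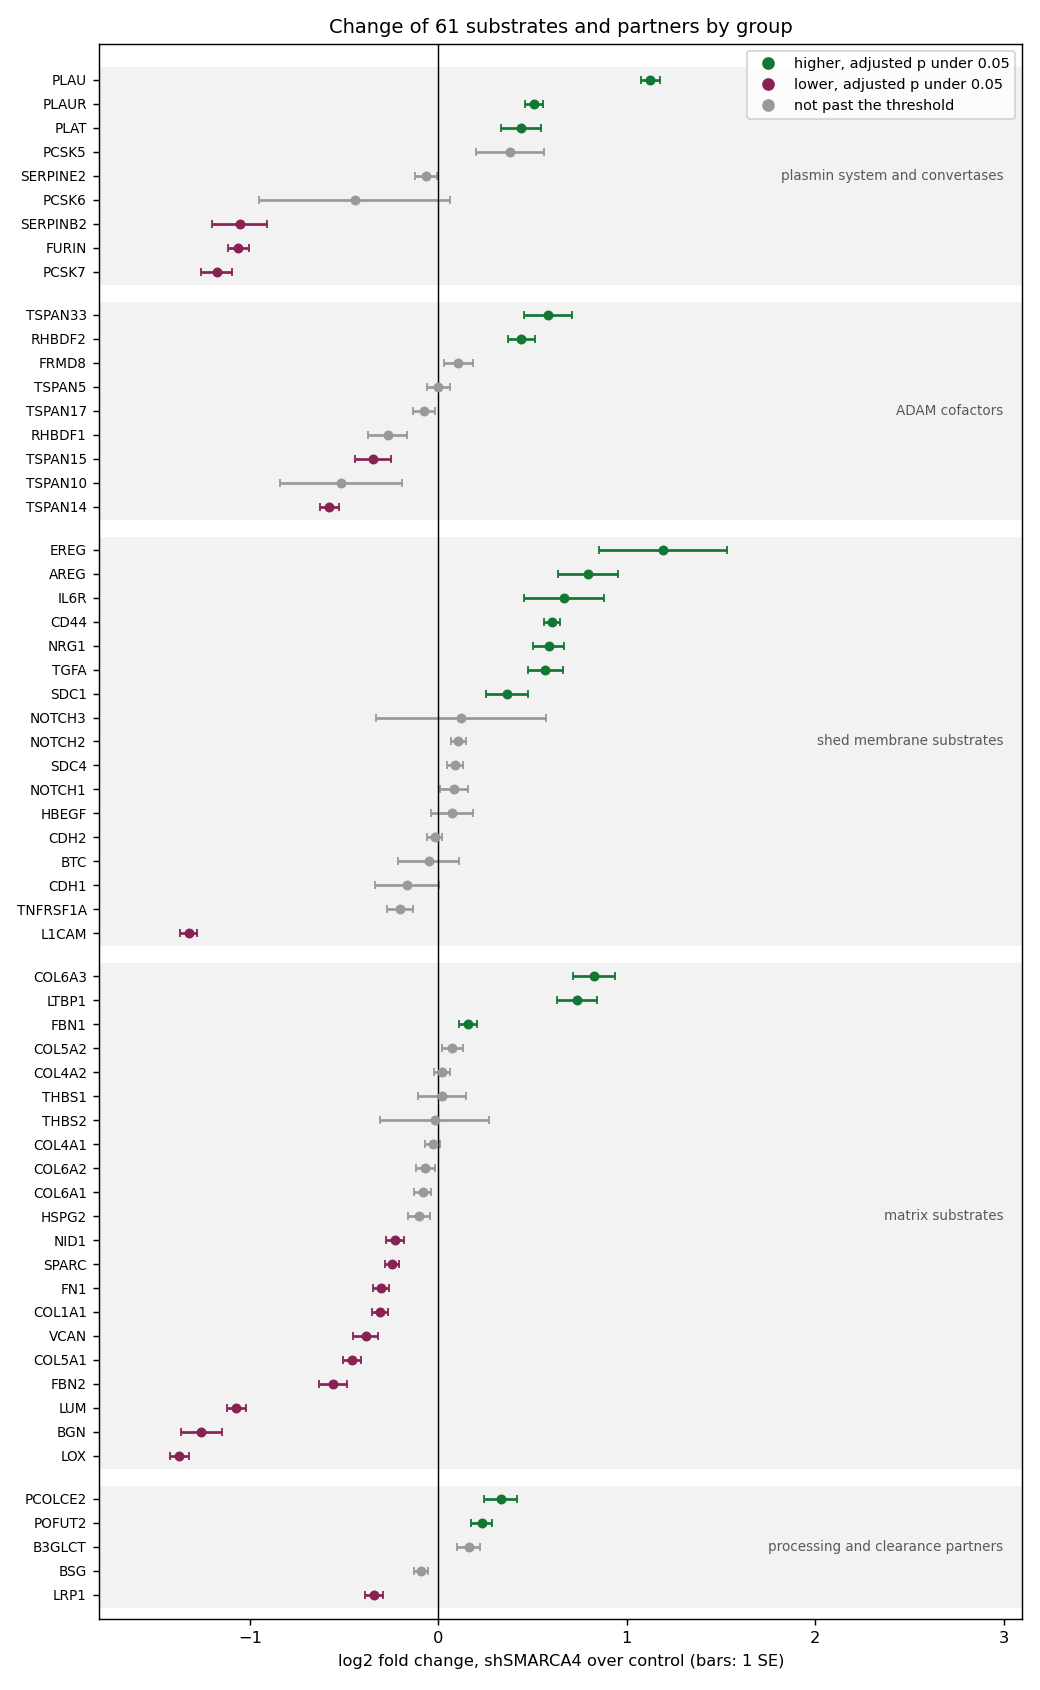
Log2 fold change, shRNA over control, with 1 SE, of 61 of the 62 tested substrates and partners in 5 groups; green and purple mark calls, grey the rest. PLAU and EREG are the 2 highest points, and LOX, L1CAM, BGN and PCSK7 the 4 lowest.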

How the data were processed

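Expression was measured by RNA-seq of total RNA in 4 FT190 libraries. The authors deposited raw counts per gene, summed over exons with HOMER (analyzeRepeats, both strands, 1 transcript row per gene, no normalization) on GENCODE release 45 and hg38, per the file headers. Reads were aligned with STAR 2.6.1c, and DESeq2 1.19.38 is named without a role in the submitters' processing notes. Of 6 libraries in the header command, 4 are analysed here.

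Genes passing filterByExpr (count minimum 10) were scaled with TMM factors and tested with edgeR 4.0.16 (glmQLFit, glmQLFTest, two-sided, R 4.3.3). P-values were adjusted by Benjamini-Hochberg across 18781 genes at a threshold of 0.05. CPM used the scaled library totals of these genes. Each SE was obtained as |log2 fold change| over the root of the F statistic. With 2 libraries against 2 an exact permutation test cannot go below p = 0.333, so none was run. Libraries of a group were not duplicates (chi-square over its degrees of freedom 6.33 in controls, 1.88 in shRNA libraries). Shared exon bases were computed for the members only and came from GENCODE release 29, not the release counted.

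Every tested member is named. Members past the threshold and the most abundant of each class have values per library, and 3 genes per partner group with the smallest adjusted p are named. Members and lists were chosen with earlier results of these data known. Of the listed genes, 2 are counted but not reported by name here. Alternatives were other scaling factors, filters, DESeq2 1.42.0, limma-voom (limma 3.58.1), protein-coding genes only, a replicate block and leaving out each library.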

Additional observations from a re-analysis of the deposited data

How the results depend on the processing

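Of the 21 member calls, 14 held under all 13 alternatives run: ADAM10, ADAM15, ADAM17, ADAMTS3, ADAMTS14, ADAMTSL3, ADAMTSL4, BMP1, MMP2, MMP16, MMP24, TIMP2, TIMP3 and TLL1. No called member changed sign, and over 616 member values 18 lost and 9 gained a call. With no count filter, 35109 genes were tested, 9 members fell instead of 14, 10 partner genes rose instead of 18, and the count was 0 for membrane-bound MMPs that rose, 0 for secreted MMPs that fell, 1 for ADAMTS proteases that fell and 1 for ADAMTS-like genes that fell. DESeq2 also gave 1 for ADAMTS-like genes that fell. Over all genes the calls numbered 5572 in the reported fit, 3187 with no filter and 3555 with DESeq2.

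Leaving out 1 library at a time, 6 to 9 members rose and 12 to 18 fell, and 13 to 23 partner genes rose and 15 to 20 fell. By class the ranges were 1 to 2 for ADAMTS proteases that rose, 2 to 5 for ADAMTS proteases that fell, 1 to 2 for ADAMTS-like genes that fell, 1 to 2 for ADAMs that fell, 0 to 1 for inhibitors that rose, 0 to 1 for membrane-bound MMPs that rose and 1 to 2 for secreted MMPs that rose. In these fits the lone library of a group is assumed to vary like the others. The cause of these shifts was not tested beyond the number of genes or libraries used. With the replicate block 7 members rose and 15 fell. The numbers pair no samples by the labels, and deviations of same-numbered libraries correlated at 0.119 across genes over 2 pairs. Depth limits the members under the filter, for which the reported fit gives no test.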
